A study of Mus musculus with 13 samples.

Results

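The unfolded protein response and the integrated stress response were followed here through 34 genes picked by name from the count table: 14 chaperones and folding enzymes of the endoplasmic reticulum (ER), the translocon subunit Sec61b, 4 genes of the stress sensors and their transcription factor Xbp1, 7 genes of ER-associated degradation (ERAD) and 8 genes of the ATF4 arm. They filled 35 rows of a table of 25746 genes, because Ddit3 was listed under a pair of overlapping gene models. All 34 had enough reads to be tested, among 16051 genes tested in all.

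The libraries came from interfollicular keratinocytes, which line the epidermis outside the follicles, sorted from the skin of C57/BL6 mice and sequenced in bulk. All mice carried floxed alleles of Il12rb2, which encodes a subunit of the interleukin-12 receptor. The floxed control mice had no Cre (Il12rb2fl/fl) and gave 3 untreated libraries and 3 libraries from skin treated for 1 day with Aldara, a cream with 5% imiquimod that activates Toll-like receptor signalling. The Il12rb2-deleted mice (K14Cre/+ Il12rb2fl/fl), in which a keratin 14 promoter drives Cre in keratinocytes, gave 4 untreated libraries and 3 after 1 day of Aldara. The study asked how the receptor's loss from keratinocytes bears on psoriasis-like inflammation. The labels do not say that numbered replicates came from separate mice, so the p-values below measure the spread between these libraries only, which may be technical. No vehicle-treated group and no Cre group without floxed alleles was analysed here.

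Proteins that are secreted or sit in membranes fold in the ER with the help of chaperones. When unfolded proteins pile up there, 3 sensors in the ER membrane respond: IRE1 (gene Ern1) splices Xbp1 mRNA into a form that encodes an active transcription factor, ATF6 is cleaved to release one, and PERK (gene Eif2ak3) phosphorylates the initiation factor eIF2-alpha. The first pair raises transcription of chaperones and of the ERAD machinery, which moves misfolded proteins to the proteasome. Phosphorylation of eIF2-alpha, which kinases for amino acid shortage, viral RNA and haem shortage also carry out, is the core of the integrated stress response. It slows translation in general and favours translation of ATF4, a factor that switches on genes of amino acid synthesis and transport. Counts per gene show neither Xbp1 splicing, nor cleavage of ATF6, nor translation of Atf4. In keratinocytes the same chaperones serve the output of adhesion proteins, receptors and secreted factors.

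The sequences that tie several members together are the response elements in their promoters. RefSeq windows running from 250 bases before to 50 bases after the start of transcription (build GRCm38.p6) were found by symbol for 30 of the 34 genes, all but Manf, Atf6, Derl1 and Hyou1, and were searched on both strands. The ER stress response element was searched as CCAAT, any 9 bases, then CCACG. It was present in 9 of the 30 members and in 37 of all 27025 genes with a window, or 0.137%. It was first described in promoters of chaperone genes such as Hspa5, so its share among the members describes a known property of them. The 9 members were Hspa5, Hsp90b1, Calr, Canx, Creld2, Pdia6, Dnajc3, Syvn1 and Derl3, and Hsp90b1 held 2 copies. The element thus occurred in 7 of the 12 chaperone genes with a window, 2 of 6 ERAD genes and 0 of 8 genes of the ATF4 arm. The following stretches are shown because they carry the element in chaperone genes that rose after Aldara and, last, in a pair of genes that did not pass the test. Each is written 5′ to 3′ on the strand of its gene, and capitals mark the fixed letters of the element, which read CGTGG and ATTGG where the match is on the other strand.
Hspa5: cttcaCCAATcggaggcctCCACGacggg
Hsp90b1, nearer copy: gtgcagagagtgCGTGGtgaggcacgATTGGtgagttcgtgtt
Hsp90b1, farther copy: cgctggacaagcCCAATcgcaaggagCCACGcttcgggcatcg
Calr: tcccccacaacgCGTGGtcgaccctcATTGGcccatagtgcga
Canx: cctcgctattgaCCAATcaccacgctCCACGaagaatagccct
Creld2: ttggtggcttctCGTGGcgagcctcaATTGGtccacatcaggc
Pdia6: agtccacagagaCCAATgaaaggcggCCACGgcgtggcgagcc
Dnajc3: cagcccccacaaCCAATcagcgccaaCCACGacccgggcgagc
Syvn1: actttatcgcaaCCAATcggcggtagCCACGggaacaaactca
The Hspa5 stretch lay at chr2:34772020-34772048 on the plus strand, and its element spanned 65 to 47 bases before the RefSeq start. An exon of a longer Hspa5 transcript in the GENCODE vM21 annotation covers that position, and no annotated exon covers the other stretches. The Hsp90b1 copies lay on the minus strand at chr10:86705521-86705563 and chr10:86705626-86705668, 107 to 89 and 212 to 194 bases before the start. Calr (chr8:84847063-84847105) and Canx (chr11:50325788-50325830) are also on the minus strand, with the element 162 to 144 and 145 to 127 bases before their starts. The plus-strand genes were Creld2 (chr15:88819508-88819550), Pdia6 (chr12:17266479-17266521), Dnajc3 (chr14:118937815-118937857) and Syvn1 (chr19:6046520-6046562). In those 4 genes the element began 126, 98, 105 and 44 bases before the start.

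A variant of the element, ATTGG, any single base, then CCACG, was found in 12 genes in all (0.044%), among them the members Herpud1 and Dnajb11. The XBP1 binding core TGACGTGG was found in 193 genes (0.714%) and in none of the 30 members. The core of the amino acid response element, searched as TGATGNAA, was far more frequent, at 1219 genes (4.51%), and occurred in 4 members, Asns, Chac1, Trib3 and Herpud1. A pair of sites is shown for the ATF4 arm and for ERAD, with the fixed letters of each motif in capitals.
Asns, amino acid response core: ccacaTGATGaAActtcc
Herpud1, variant ER stress element: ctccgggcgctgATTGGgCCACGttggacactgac
The Asns core lay at chr6:7693220-7693237 on the minus strand, 23 to 16 bases before the RefSeq start and within an exon of a longer Asns transcript in GENCODE. The Herpud1 stretch lay at chr8:94386365-94386399 on the plus strand, with the motif 52 to 42 bases before the start. These are matches of letters, not measured binding.

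The libraries held between 5830034 and 22232478 counts. Il12rb2 itself, the targeted gene, stood at 17.1, 78.8 and 52.7 CPM (counts scaled to library size with TMM factors) in the floxed untreated libraries and at 22.7, 8.52, 25.6 and 19.0 in the Il12rb2-deleted untreated libraries. In treated skin it measured 1.98, 8.14 and 2.68 CPM in floxed control libraries and 0, 1.07 and 1.64 in Il12rb2-deleted ones. Its deletion difference was -1.38 on the log2 scale in untreated and -2.14 in Aldara libraries, and edgeR called neither (adjusted p = 1.00 and 0.982). Which exons Cre removed is not stated in the labels. A predicted gene model, Gm10800, took over 5% of the counts in 3 untreated libraries (floxed replicate 2 and deleted replicates 1 and 2), with 14.2% as the highest share. The library of deleted Aldara replicate 1 stood apart, with a median Spearman correlation of 0.862 to the others, against 0.900 to 0.920 for the remaining 12.

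The labelled cell type was present: 7 basal keratinocyte markers (Krt5 and Krt14 among them) summed to 25370 to 67480 CPM in untreated and 12661 to 21146 CPM in Aldara libraries, and 5 of 7 fell. Of 8 suprabasal markers, 5 fell and 1 rose, with sums of 2523 to 5992 CPM in untreated and 265 to 914 CPM in Aldara libraries. Markers of sebaceous gland cells, lipid-making cells of the hair follicle unit, summed to 625 to 2906 CPM in untreated and 5063 to 9782 CPM in Aldara libraries, and 10 of 12 rose. Fibroblast markers summed to 790 to 1897 CPM in untreated and 14.3 to 315 CPM in Aldara libraries, and 7 of 9 fell. Langerhans cell and macrophage markers summed to 397 to 935 CPM against 544 to 1236, with Cd207 at 0 in the 3 deleted Aldara libraries. Neutrophil markers summed to 0.544 to 20.8 CPM against 18.8 to 183 CPM, and 2 of the 3 with enough reads rose. Sums of endothelial and mural markers ran from 45.5 to 225 CPM untreated and 18.8 to 65.9 CPM after Aldara, of T cell markers from 19.7 to 48.2 and 7.79 to 15.3 CPM, and of melanocyte markers from 28.2 to 228 and 15.2 to 132 CPM. Plasma and B cell markers, which would bring a strong secretory programme, summed to at most 6.99 CPM untreated and 9.76 CPM after Aldara, with Igkc at 0 in every group but the deleted untreated one. Their part in the differences below was not tested. In bulk RNA, fewer cells of a type and less RNA per cell cannot be told apart.

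Across both genotypes, 1 day of Aldara went with higher mRNA of most ER chaperones and of a subset of ATF4-linked genes, and with lower Ppp1r15a. Averaged over genotypes by edgeR's quasi-likelihood test with Benjamini-Hochberg adjustment over all 16051 genes, 16 of the 34 members rose (47.1%), against 13% of all genes tested. A single member fell (2.94%), against 11.9% of all genes. The members were chosen with earlier results of these data known, so these shares are a description and not an independent test. By arm, 10 of 14 chaperones rose, Sec61b rose, Xbp1 rose among the 4 sensor genes, none of 7 ERAD genes passed in either direction, and 4 of 8 genes of the ATF4 arm rose while 1 fell. The median log2 difference was 0.61 for chaperones, 0.10 for sensors with Xbp1, 0.13 for ERAD and 0.48 for the ATF4 arm, beside -0.15 for all genes. Differences in the ATF4 arm ran from -1.79 to 1.83, and 4 of 8 were positive, as in each genotype alone. The median of that arm lies between the genes that rose and the rest, so it does not describe a shared shift. By genotype, floxed control before deleted, the median was 0.69 and 0.47 for chaperones and 0.44 and -0.20 for sensors with Xbp1. It was 0.08 and 0.12 for ERAD and 0.50 and 0.40 for the ATF4 arm, beside -0.13 and -0.09 for all genes. The ERAD value of 0.12 in deleted mice is the estimate of Derl3, a gene near the limit of detection. The sebaceous and neutrophil marker sums moved the same way as the chaperones, with the values above. Basal and suprabasal keratinocyte, fibroblast, endothelial and T cell sums moved the opposite way. Langerhans cell and macrophage, melanocyte, and plasma and B cell sums overlapped widely between treatments. Without the 3 untreated libraries rich in Gm10800, an alternative added after seeing the data, the count of members called was 9 (8 up, 1 down). The share of all genes called in either direction went from 24.9% to 16.5%. In that setting the medians were 0.45 for chaperones, 0.13 for sensors with Xbp1, 0.13 for ERAD and 0.29 for the ATF4 arm. The median of all genes was 0.08 there, so the chaperones and the ATF4 arm lay closer to it.

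**Figure D1:**
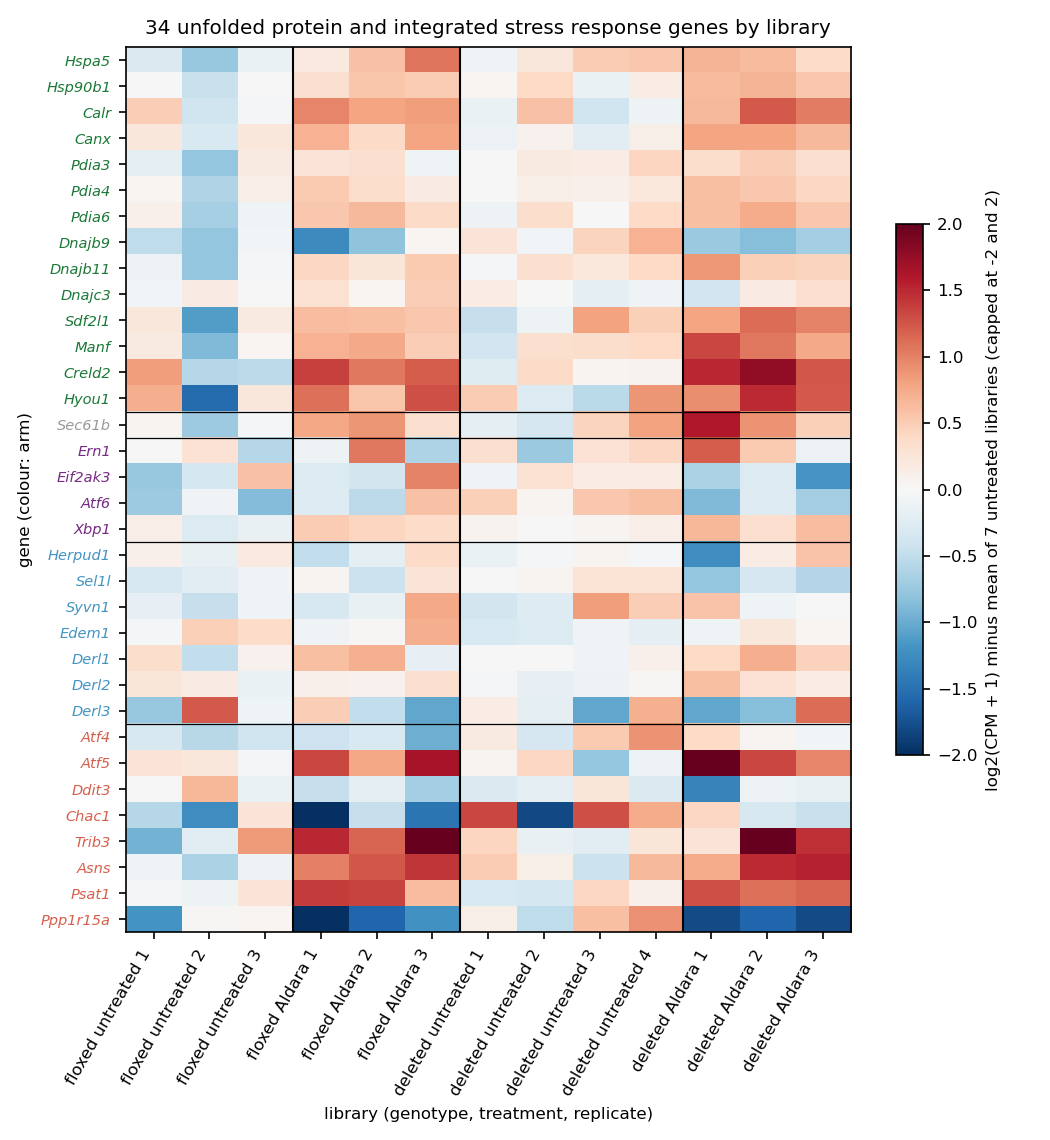
Level of the 34 genes (rows, label colour by arm) in the 13 libraries (columns), as log2(CPM + 1) minus the mean of the 7 untreated libraries, capped at -2 and 2. Red rows in the 6 Aldara columns are seen for Creld2, Calr, Canx, Manf, Atf5, Asns and Psat1, and blue for Ppp1r15a, while ERAD rows show no common shift.

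Within floxed control mice, 4 members rose (11.8%, against 4.15% of all genes tested) and 0 fell (against 2.9%). They were Hspa5, Creld2, Asns and Psat1. Within Il12rb2-deleted mice, 7 members rose (20.6%, against 7.81% of all genes) and 4 fell (11.8%, against 7.69%). Those that rose were Calr, Canx, Manf, Creld2, Atf5, Asns and Psat1, and those that fell were Dnajb9, Atf6, Sel1l and Ppp1r15a. The genes called in both genotypes, Creld2, Asns and Psat1, made up 75% of the floxed calls and 27.3% of the deleted calls. In 8 members every one of the 6 Aldara libraries lay above all 7 untreated libraries (6.29% of all genes did so): Calr, Canx, Manf, Creld2, Xbp1, Atf5, Asns and Psat1. In 1 member, Ppp1r15a, every Aldara library lay below all untreated ones (5.48% of all genes). The floxed count moved with single libraries, as did the share of all genes called in either direction, which was 7.05% with all libraries. The count was 0 without floxed untreated replicate 2 (1.29% of all genes), 1 without floxed untreated replicate 3 (1.66%) or floxed Aldara replicate 2 (3.54%), and 2 without floxed Aldara replicate 1 (2.43%) or deleted Aldara replicate 2 (5.04%). The deleted count, with 15.5% of all genes called over all libraries, was 5 without deleted untreated replicate 3 (12.5%), 6 without deleted untreated replicate 1 (10.4%) or deleted Aldara replicate 2 (9.62%) or 3 (10.7%), and 7 without deleted Aldara replicate 1 (9.72%).

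**Figure D2:**
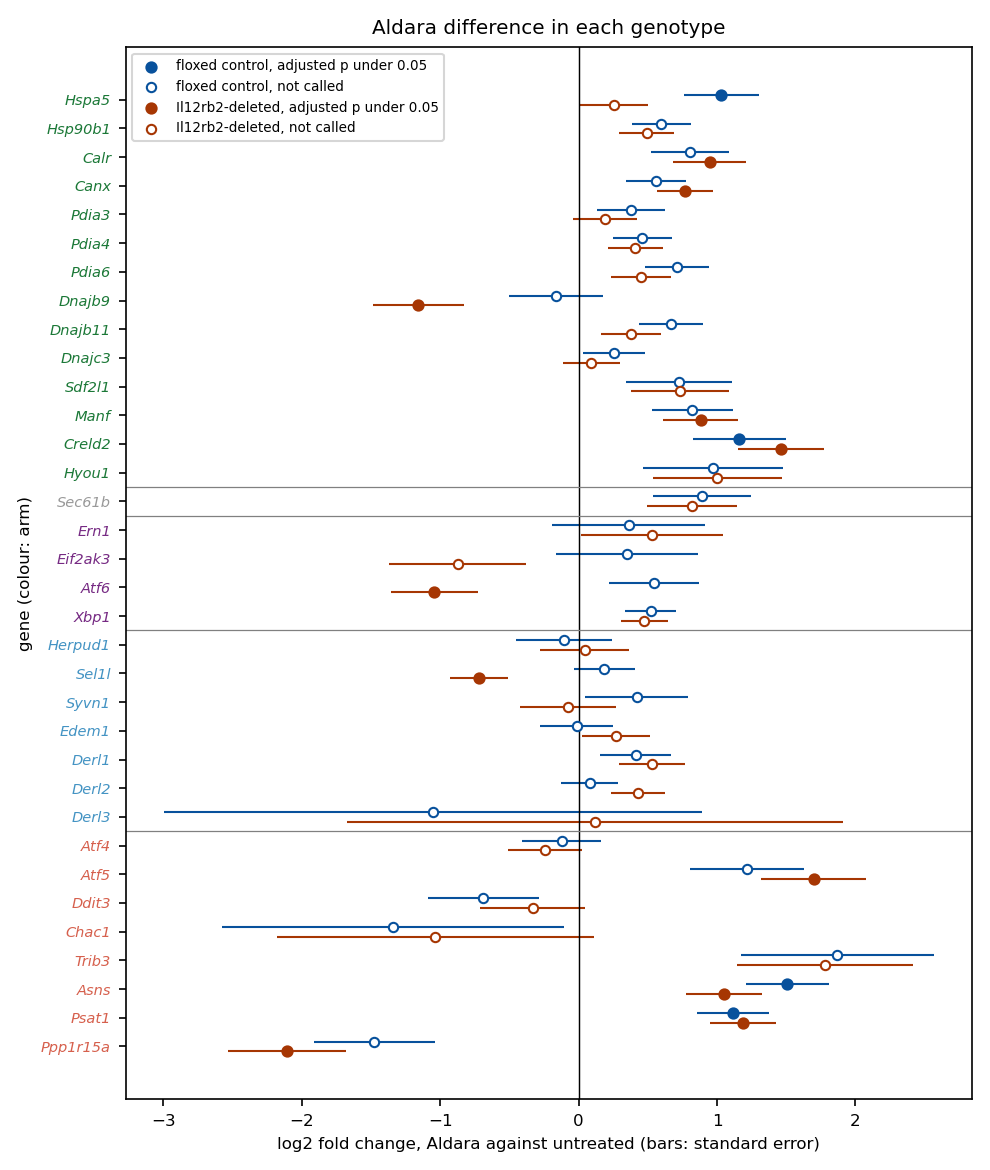
Log2 fold change of Aldara against untreated libraries for each gene, in floxed control (blue) and Il12rb2-deleted mice (red), with bars of 1 standard error and filled points for an adjusted p under 0.05. The chaperones except Dnajb9, and the genes Atf5, Trib3, Asns and Psat1, lie to the right of 0 in both genotypes. Dnajb9, Atf4, Ddit3, Chac1 and Ppp1r15a lie to the left in both. Atf6, Eif2ak3, Sel1l, Syvn1, Herpud1 and Edem1 lie on opposite sides, as does Derl3, which is near the limit of detection.

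Among the chaperones, Creld2, a disulfide-handling ER protein known as an ATF6 target, showed the steepest difference of the arm. It stood at 74.4, 27.6 and 28.4 CPM in floxed untreated and 108, 87.1 and 96.5 in floxed Aldara libraries. In deleted mice it stood at 34.7, 54.1, 42.8 and 43.6 CPM untreated and 119, 143 and 99.1 after Aldara. All Aldara libraries lay above all untreated ones, and floxed untreated replicate 1 was the only untreated library above 54.1 CPM. The averaged log2 fold change was 1.31 (SE 0.23, 95% interval 0.82 to 1.80, adjusted p = 7.52e-04), a 2.48-fold higher level. In floxed control alone the call (adjusted p = 0.0494) was lost when any of 11 of the 13 libraries was left out, with p up to 0.211 without floxed untreated replicate 2. In deleted mice (log2 1.46, adjusted p = 0.00549) it was kept under every alternative run.

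Calr and Canx encode calreticulin and calnexin, the lectin chaperones that hold newly made glycoproteins until they fold. Calr stood at 311, 168 and 218 CPM in floxed untreated and 436, 383 and 399 in floxed Aldara libraries, and at 202, 335, 168 and 207 and 347, 518 and 451 in the deleted groups. Canx stood at 470, 325 and 470 CPM in floxed untreated and 652, 522 and 694 in floxed Aldara libraries, and at 369, 427, 343 and 438 and 694, 695 and 628 in the deleted groups. For both genes the treated and untreated libraries did not overlap, although the closest pair for Calr was only 335 against 347 CPM, both in deleted mice. The averaged differences were 0.88 (SE 0.19, adjusted p = 0.00383) and 0.67 (SE 0.15, adjusted p = 0.00401) on the log2 scale. Both were called in deleted mice (log2 0.95 and 0.77, adjusted p = 0.0236 and 0.0177). Leaving out any of 5 libraries for Calr or any of 4 for Canx, all from the deleted groups, ended those calls, with adjusted p up to 0.108 and 0.0695 without deleted Aldara replicate 2. In floxed control their differences of 0.81 and 0.56 did not pass the test (adjusted p = 0.103 and 0.138).

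Hspa5 encodes BiP, the main Hsp70 chaperone of the ER and the protein that keeps the sensors inactive at rest. It stood at 514, 372 and 579 CPM in floxed untreated and 722, 953 and 1325 in floxed Aldara libraries. The deleted groups showed 593, 737, 901 and 921 CPM untreated and 1017, 982 and 817 after Aldara. The floxed groups did not overlap, whereas in deleted mice 2 of the 4 untreated libraries exceeded the lowest Aldara library. Hspa5 rose in floxed control by 1.03 (log2, SE 0.27, adjusted p = 0.0338) and differed by 0.25 in deleted mice (interval -0.28 to 0.79, adjusted p = 0.575). The difference between those effects was -0.78 (interval -1.57 to 0.01, adjusted p = 1) and did not pass the test. The floxed call was lost when any of 6 libraries was left out, with adjusted p up to 0.160 without floxed untreated replicate 2. The averaged call (log2 0.64, adjusted p = 0.0184) was lost without that same library (adjusted p = 0.0548).

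Hsp90b1, which encodes GRP94, the Hsp90 chaperone of the ER, stood at 534, 392 and 539 CPM in floxed untreated and 669, 786 and 761 in floxed Aldara libraries. Its values in deleted mice were 552, 704, 489 and 593 CPM untreated and 829, 858 and 780 after Aldara. Groups did not overlap within either genotype, but deleted untreated replicate 2 lay above floxed Aldara replicate 1. The averaged rise was 0.54 (SE 0.15, adjusted p = 0.0127), and it was called under every alternative run. Manf, a secreted ER-resident factor that binds BiP, stood at 54.8, 25.9 and 49.5 CPM in floxed untreated and 78.8, 83 and 68.8 in floxed Aldara libraries, and at 36.8, 60.6, 61.7 and 64.1 and 124, 102 and 82.3 in the deleted groups. All 6 Aldara libraries lay above the highest untreated value of 64.1 CPM. Manf rose by 0.85 on the log2 scale on average (SE 0.20, adjusted p = 0.0057). In deleted mice the call for Manf (log2 0.88, adjusted p = 0.0384) was lost when any of 8 libraries was left out, with p up to 0.152 without deleted Aldara replicate 1. Reads of Manf cannot be told apart from those of the overlapping genes Rbm15b and Dcaf1 where the models share bases.

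The protein disulfide isomerases form and reshuffle disulfide bonds. Pdia6 stood at 331, 194 and 289 CPM in floxed untreated and 446, 484 and 403 in floxed Aldara libraries, and at 289, 392, 309 and 407 and 470, 514 and 447 in the deleted groups. Pdia4 stood at 169, 108 and 180 CPM and 236, 209 and 184 in the floxed groups, and at 166, 178, 176 and 190 and 250, 239 and 220 in the deleted groups. Neither gene's groups overlapped within a genotype, and in both the lowest library of all was floxed untreated replicate 2. Pdia6 rose by 0.58 (SE 0.16, adjusted p = 0.0137) and Pdia4 by 0.44 (SE 0.14, adjusted p = 0.0383) on the log2 scale, averaged over genotypes. The Pdia4 call was lost when any of 9 of the 13 libraries was left out, with p up to 0.113 without floxed Aldara replicate 1. Pdia3, the isomerase that works with calnexin and calreticulin, ranged from 327 to 753 CPM untreated and from 526 to 788 CPM after Aldara, and its difference of 0.29 (interval -0.07 to 0.64, adjusted p = 0.245) did not pass the test. Pdia6 overlaps Atp6v1c2 and Pdia3 overlaps Catsper2, each on the opposite strand.

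The J-domain proteins, which bring clients to BiP, went different ways. Dnajb11 stood at 76.2, 47.7 and 81.6 CPM in floxed untreated and 110, 97.7 and 119 in floxed Aldara libraries, and at 81.1, 104, 95.2 and 110 and 152, 115 and 113 in the deleted groups. Groups did not overlap within a genotype, and Dnajb11 rose by 0.52 on average (SE 0.16, adjusted p = 0.0253). That call was lost without floxed untreated replicate 2 (0.0672), deleted untreated replicate 1 (0.0505), floxed Aldara replicate 1 (0.0568) or deleted Aldara replicate 1 (0.0688). Dnajb9, a J protein that recruits BiP to IRE1 and is a target of spliced XBP1, stood at 25.9, 21.3 and 35.6 CPM and 14.8, 20.8 and 38.4 in the floxed groups. In deleted mice it stood at 44.7, 35.6, 50.9 and 61.2 CPM untreated and 21.8, 20.1 and 22.8 after Aldara. The deleted groups were fully apart, with Aldara lower, while the floxed groups overlapped. Dnajb9 fell, with a log2 fold change of -1.16 in deleted mice (SE 0.33, adjusted p = 0.027) and differed by -0.16 in floxed control (adjusted p = 0.851). The deleted call was lost when any of 6 libraries of those groups was left out, with p up to 0.0935 without deleted Aldara replicate 2. Averaged over genotypes the Dnajb9 difference of -0.66 did not pass (adjusted p = 0.0534), but it did without floxed Aldara replicate 3 (0.00665) or deleted untreated replicate 2 (0.0438) and with DESeq2 and limma voom. The difference between the effects was -0.995 (interval -1.999 to 0.01, adjusted p = 1). Dnajc3, which encodes p58IPK, ranged from 75.4 to 95.6 CPM untreated and from 65.4 to 121 CPM after Aldara (log2 0.17, adjusted p = 0.451).

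Hyou1 encodes a large Hsp70-like nucleotide exchange factor of BiP. It stood at 28.7, 5.22 and 20.1 CPM in floxed untreated and 37.5, 25.5 and 43.1 in floxed Aldara libraries, and at 24.7, 13.9, 11.4 and 32.1 and 33.2, 49.4 and 41.2 in the deleted groups. Untreated values spread from 5.22 to 32.1 CPM, and the floxed groups overlapped. The averaged rise of 0.99 (SE 0.34, adjusted p = 0.0465) was lost when any of 9 of the 13 libraries was left out, with p up to 0.103 without deleted Aldara replicate 2. Sdf2l1, a BiP cofactor, ranged from 9.06 to 36.9 CPM untreated and from 30.6 to 46.4 CPM after Aldara. Its difference of 0.73 (adjusted p = 0.0545) did not pass the test, while DESeq2 and limma voom did call it (adjusted p = 0.0416 and 0.0349). It also passed without deleted untreated replicate 3 (0.0300).

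Sec61b encodes a subunit of the channel through which new proteins enter the ER. It stood at 59.7, 34.2 and 55.9 CPM in floxed untreated and 99.2, 107 and 72 in floxed Aldara libraries, and at 50.2, 45.2, 78.9 and 101 and 176, 109 and 80.6 in the deleted groups. In deleted mice the highest untreated library exceeded the lowest Aldara library, and in floxed control the groups were apart. Sec61b rose by 0.85 on average (SE 0.24, adjusted p = 0.0161).

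**Figure D3:**
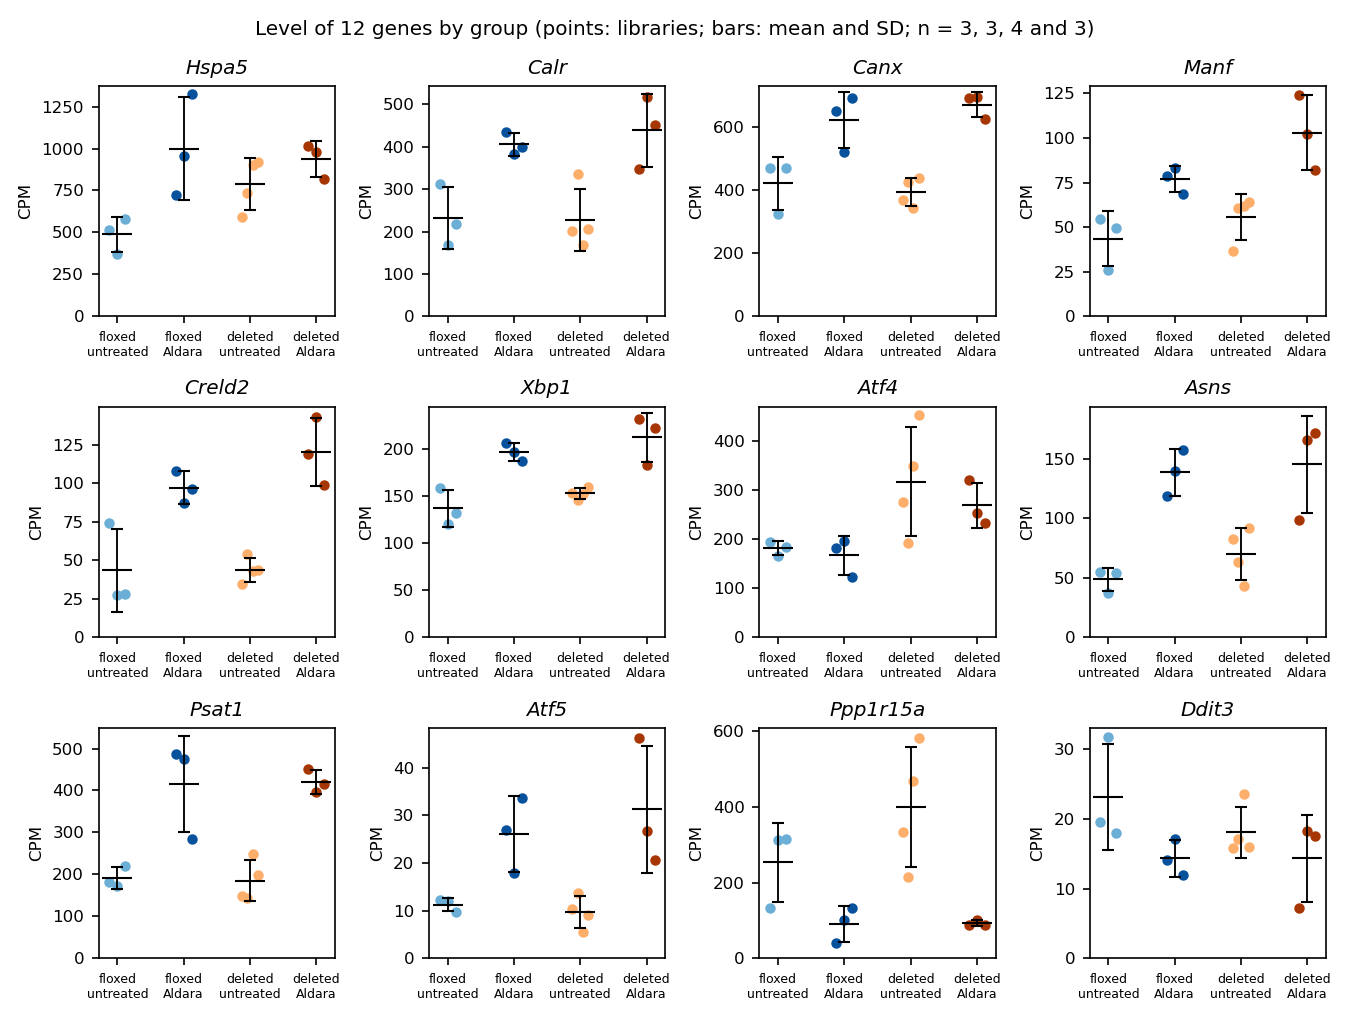
CPM of 12 genes in each library (points) with group mean and SD (bars), for 3 floxed untreated, 3 floxed Aldara, 4 deleted untreated and 3 deleted Aldara libraries. Calr, Canx, Manf, Creld2, Xbp1, Atf5, Asns and Psat1 lie higher and Ppp1r15a lower in every Aldara library than in any untreated one, while Atf4 and Ddit3 overlap between treatments.

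Of the sensor genes, Xbp1 alone rose. It stood at 159, 120 and 131 CPM in floxed untreated and 206, 196 and 187 in floxed Aldara libraries, and at 153, 146, 152 and 160 and 232, 183 and 222 in the deleted groups. Every Aldara library lay above the highest untreated library, and the 4 deleted untreated libraries lay between 146 and 160 CPM. The averaged log2 fold change was 0.50 (SE 0.13, adjusted p = 0.00934), and neither genotype alone passed (adjusted p = 0.107 and 0.0753). Xbp1 is itself a target of ATF6, and these counts sum its spliced and unspliced forms.

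Atf6 encodes the sensor that is cut in the Golgi to release a transcription factor. It stood at 25, 39.8 and 22.5 CPM in floxed untreated and 34.7, 28.7 and 63.3 in floxed Aldara libraries. In deleted mice it stood at 58.5, 43.4, 61.1 and 64.2 CPM untreated and 22.3, 35 and 25.5 after Aldara. The deleted groups were apart, with Aldara lower, and the floxed groups overlapped. Atf6 fell in deleted mice, with a log2 fold change of -1.04 (SE 0.31, adjusted p = 0.0346), a call that was lost when any of 5 libraries of those groups was left out (p up to 0.121 without deleted Aldara replicate 1). In floxed control the difference was 0.54 (interval -0.15 to 1.24, adjusted p = 0.374). The test of the difference between the effects gave -1.59 (interval -2.55 to -0.62, unadjusted p = 0.00311, adjusted p = 1), which did not pass over all genes. Ern1 stood at 9.65, 12 and 6.13 CPM in floxed untreated and 8.88, 21 and 5.94 in floxed Aldara libraries, and at 12.3, 5.35, 12 and 13.1 and 23.5, 14.3 and 8.75 in the deleted groups. Treated and untreated libraries overlapped in both genotypes, and the averaged difference of 0.45 (interval -0.36 to 1.25, adjusted p = 0.438) did not pass. Eif2ak3 ranged from 6.26 to 17.5 CPM untreated and from 4.45 to 23.5 CPM after Aldara, with averaged difference -0.26 (interval -1.02 to 0.49, adjusted p = 0.648). It overlaps the opposite-strand model Gm43292.

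None of the 7 ERAD genes was called in the averaged test, where 13% of all genes rose and 11.9% fell. At an unadjusted p under 0.05 there was 1, Derl1, beside 35.6% of all genes. With only 7 genes, these counts do not set ERAD apart from all genes. DESeq2 and limma voom also called none of the 7 ERAD genes. Derlin-1, the product of Derl1, is part of the channel through which misfolded proteins leave the ER. It stood at 130, 72.2 and 109 CPM in floxed untreated and 155, 168 and 91.1 in floxed Aldara libraries, and at 103, 102, 96.6 and 110 and 134, 170 and 141 in the deleted groups. Deleted groups were apart and floxed groups overlapped because of floxed Aldara replicate 3, without which the averaged difference of 0.47 (adjusted p = 0.0625) passed at 0.0148, and it also passed without floxed untreated replicate 1 (0.0417). Derl2, a related derlin that overlaps Mis12, stood at 64.7, 61.3 and 49.8 CPM and 59, 58 and 68.9 in the floxed groups, and at 53.7, 48.7, 50.8 and 55.6 and 83.6, 66.7 and 61 in the deleted groups. Its averaged difference was 0.26 (interval -0.05 to 0.56, adjusted p = 0.219), with the floxed groups overlapping and the deleted groups apart.

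Sel1l and Syvn1 encode the scaffold and the ubiquitin ligase (HRD1) of the main ERAD complex. Sel1l stood at 68.2, 73.8 and 81.5 CPM in floxed untreated and 88.9, 63 and 102 in floxed Aldara libraries. In deleted mice it stood at 85.9, 89.1, 104 and 103 CPM untreated and 49.9, 67.6 and 56.7 after Aldara. Only the deleted groups were apart, with Aldara lower. Sel1l fell there, with a log2 fold change of -0.72 (SE 0.21, adjusted p = 0.0307), and the call was lost when any of 4 libraries of those groups was left out (p up to 0.122 without deleted Aldara replicate 1). The floxed difference was 0.19 (adjusted p = 0.709), and the difference between effects was -0.91 (unadjusted p = 0.00946, adjusted p = 1). Syvn1, which overlaps Mrpl49, ranged from 23.5 to 58.9 CPM untreated and from 25.9 to 55.7 CPM after Aldara (log2 0.17, interval -0.37 to 0.71).

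Herpud1, which encodes HERP, a short-lived ERAD cofactor with the variant ER stress element and the amino acid response core in its promoter, ranged from 124 to 156 CPM untreated and from 57.6 to 203 CPM after Aldara. The low and the high end were both deleted Aldara libraries, replicates 1 and 3, and the averaged difference was -0.03 (interval -0.53 to 0.47, adjusted p = 0.946). Edem1, which picks out misfolded glycoproteins, ranged from 27.3 to 47.2 CPM untreated and from 31.8 to 56.5 CPM after Aldara (log2 0.13, interval -0.25 to 0.51). Derl3 was near the limit of detection, with 0 to 51 counts per library and no count in 3 of the 13 libraries. In those 3, deleted untreated replicate 3, floxed Aldara replicate 3 and deleted Aldara replicate 1, a count of 0 allows levels up to 0.239, 0.167 and 0.328 CPM. Such limits, set at 3 counts, cover counting error only, and no fold change is given for Derl3.

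**Figure D4:**
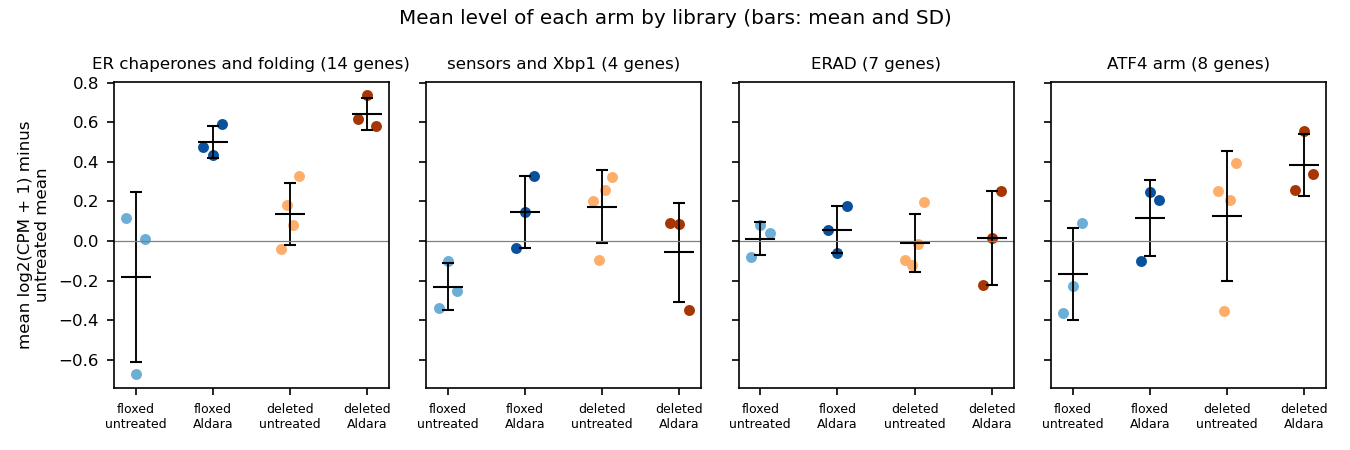
Mean over the genes of each arm of log2(CPM + 1) minus the untreated mean, for each library (points), with group mean and SD (bars). For the 14 chaperones the 6 Aldara libraries lie at 0.43 to 0.74 and the 7 untreated libraries at -0.67 to 0.33, with floxed untreated replicate 2 lowest, while the ERAD, sensor and ATF4 panels overlap between treatments.

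In the ATF4 arm the genes of amino acid synthesis rose while Atf4 itself did not pass the test. Asns encodes asparagine synthetase and Psat1 a transaminase of serine synthesis. Asns stood at 54.8, 37.2 and 54 CPM in floxed untreated and 119, 139 and 158 in floxed Aldara libraries, and at 82.9, 63, 42.8 and 91.8 and 98.3, 166 and 172 in the deleted groups. Psat1 stood at 181, 173 and 221 CPM and 487, 475 and 284 in the floxed groups, and at 149, 145, 248 and 199 and 452, 396 and 416 in the deleted groups. In both genes all Aldara libraries lay above all untreated ones, with the narrowest gap at 91.8 against 98.3 CPM for Asns and 248 against 284 CPM for Psat1. Averaged log2 fold changes were 1.28 (SE 0.20, adjusted p = 3.81e-04) and 1.15 (SE 0.18, adjusted p = 3.12e-04), or 2.43-fold and 2.22-fold. Both were called in each genotype, Asns at 1.51 and 1.05 (adjusted p = 0.0104 and 0.0174) and Psat1 at 1.12 and 1.19 (adjusted p = 0.0197 and 0.00417), floxed first. Without floxed untreated replicate 2 the floxed calls were lost (adjusted p = 0.0639 for Asns and 0.100 for Psat1). Psat1 also lost it without floxed untreated replicate 1 or 3 or floxed Aldara replicate 1 or 2, and Asns lost its deleted call without deleted Aldara replicate 2 (0.0751) or 3 (0.0765).

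Atf5 encodes a transcription factor related to ATF4 whose mRNA ATF4 and CHOP raise. It stood at 12.2, 11.9 and 9.74 CPM in floxed untreated and 26.9, 17.9 and 33.8 in floxed Aldara libraries, and at 10.5, 13.7, 5.44 and 9.16 and 46.3, 26.8 and 20.7 in the deleted groups. The highest untreated library, at 13.7 CPM, lay below the lowest Aldara library, at 17.9. Atf5 rose by 1.46 on average (SE 0.28, adjusted p = 0.00151), a 2.75-fold higher level, and by 1.70 in deleted mice (adjusted p = 0.00775). It shares positions with Nup62 and Il4i1 on the opposite strand. Trib3, a pseudokinase target of ATF4 and CHOP that dampens the response, stood at 1.4, 2.99 and 7.3 CPM and 12.1, 9.3 and 21.6 in the floxed groups, and at 5.23, 3.17, 2.95 and 4.48 and 4.5, 24.8 and 11.7 in the deleted groups. Deleted Aldara replicate 1, at 4.50 CPM, lay inside the untreated range, and the floxed groups were apart. Trib3 rose by 1.83 on average (SE 0.47, adjusted p = 0.0104), and without deleted Aldara replicate 1 it also passed in deleted mice (adjusted p = 0.0328, against 0.0709 with it).

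Atf4, the factor of the arm, stood at 195, 166 and 184 CPM in floxed untreated and 182, 196 and 122 in floxed Aldara libraries. In deleted mice it stood at 275, 192, 348 and 452 CPM untreated and 320, 252 and 233 after Aldara. Treated and untreated libraries overlapped in both genotypes, and the averaged difference was -0.18 (interval -0.59 to 0.23, adjusted p = 0.551). Ddit3, which encodes CHOP, ranged from 15.9 to 31.8 CPM untreated and from 7.16 to 18.3 CPM after Aldara, with averaged difference -0.51 (interval -1.10 to 0.08, adjusted p = 0.204). Its shorter second model, of 105 exonic bases, held 6 to 57 counts per library and gave -0.77 (adjusted p = 0.399), and both models overlap Mars on the other strand or each other. Chac1, a glutathione-degrading enzyme and a sensitive ATF4 target, spread from 0.396 to 11.4 CPM untreated and from 0 to 5.52 CPM after Aldara. The single 0, in floxed Aldara replicate 1, allows up to 0.196 CPM, and the difference of -1.19 had an interval of -2.98 to 0.61.

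Ppp1r15a encodes GADD34, which recruits a phosphatase to eIF2-alpha and so ends the integrated stress response. It stood at 133, 312 and 316 CPM in floxed untreated and 39.9, 101 and 133 in floxed Aldara libraries. In deleted mice it stood at 335, 215, 468 and 581 CPM untreated and 87.9, 102 and 88.6 after Aldara. All 6 Aldara libraries lay below all 7 untreated ones, but the narrowest gap was small, 133.3 CPM in floxed untreated replicate 1 against 132.7 CPM in floxed Aldara replicate 3. Ppp1r15a fell, with an averaged log2 fold change of -1.79 (SE 0.30, interval -2.44 to -1.14, adjusted p = 6.06e-04) and of -2.11 in deleted mice (adjusted p = 0.00423). Both calls held under every alternative run. In floxed control the difference of -1.47 (adjusted p = 0.0532) did not pass, and it passed with DESeq2, with limma voom and in 7 other settings. Tulp2 overlaps it on the opposite strand.

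Compared per exonic length, which allows levels of different genes to be set side by side, the most abundant members were chaperones, though not all chaperones were abundant. In the 7 untreated libraries mean levels were highest for Pdia3 (183 CPM per kb), Hspa5 (156), Hsp90b1 (135), Ppp1r15a (115) and Atf4 (110). In the 6 Aldara libraries Hspa5 (229), Pdia3 (217), Hsp90b1 (194), Calr (147) and Canx (138) led, and Ppp1r15a stood at 31.4. The sensors Ern1, Eif2ak3 and Atf6 lay toward the other end. They stood at 1.23, 1.96 and 4.87 CPM per kb untreated and at 1.68, 1.71 and 3.78 after Aldara. Trib3 (1.85), the chaperone gene Hyou1 (2.69) and Chac1 (3.34) also lay below Atf6 in untreated libraries. Derl3 was lowest in untreated and in Aldara libraries, at 0.678 and 0.503.

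**Figure D5:**
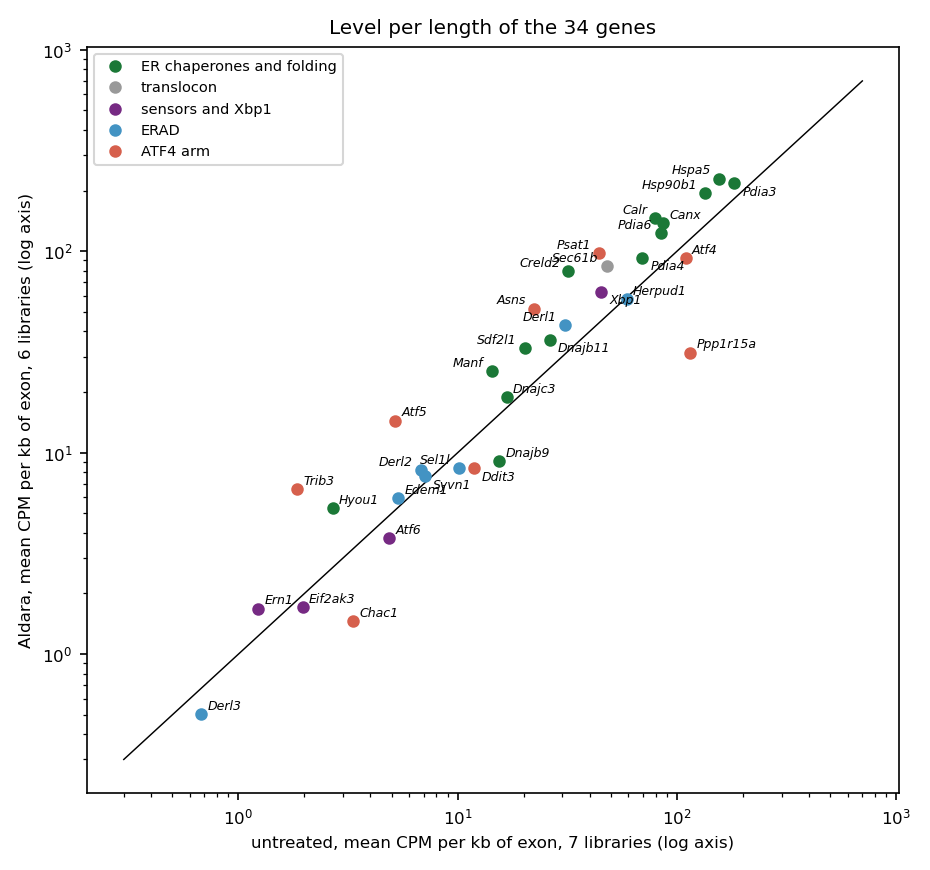
Mean CPM per kb of exon of the 34 genes in 7 untreated (x, log axis) and 6 Aldara libraries (y, log axis), coloured by arm, with the line of equal level. Chaperones such as Hspa5 and Calr lie above the line at the high end, Atf5, Trib3, Asns and Psat1 lie above it, and Ppp1r15a lies farthest below.

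Members with an ER stress element and those without were set side by side. In the averaged test 13% of all genes rose and 11.9% fell. Of the 9 members with the element, 6 rose and 0 fell (median log2 difference 0.58). Of the 21 with a window but no element, 8 rose and 1 fell (median 0.29). Dnajc3, Syvn1 and Derl3 carry the element and did not pass the test. Of 28 other genes that hold the element, 9 were tested, of which Hnrnpa3 rose (0.83) and Adcy3 fell (-1.09), with a median of -0.57. The element and the chaperone arm largely name the same genes, so these counts do not tell them apart.

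Further genes of the same pathways came from lists of 129 symbols, of which 124 were tested. Of these 54 rose and 7 fell in the averaged test, against the 13% and 11.9% of all genes given above. These lists too were chosen with earlier results of these data known. Among 22 other ER folding genes, 10 rose and 0 fell, including the peptidyl-prolyl isomerases Ppib (0.67) and Fkbp11 (1.74), the disulfide isomerase P4hb (0.72) and the glucosidase Mogs (1.76). Translocation and glycosylation genes showed 14 of 23 rising and 0 falling, led by Ssr2 (1.02), Spcs3 (0.81), Stt3b (0.74) and Dad1 (0.66). Of 19 other ERAD genes, 5 rose and 1 fell. Vcp (0.65), the ATPase that pulls proteins out of the ER, H13 (0.71), Selenos (0.65) and Ube2j2 (0.86) rose, and the lectin Os9 fell by 0.42.

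Other sensors and ER transcription factors showed 0 of 10 rising and 1 falling, Crebrf (-0.88), beside 13% and 11.9% of all genes. Mbtps1 (-0.44), which cleaves ATF6, Traf2 (-0.40) and the Xbp1 ligase Rtcb (0.29) did not pass. Among 19 tested control genes of the integrated stress response, 3 rose (15.8%) and 4 fell (21.1%), beside the same shares of all genes. Cebpb (2.11) and Eif2s1 (0.83), the gene of eIF2-alpha, rose. Atf3 fell by 2.10, Sesn2 by 1.36, Nupr1 by 0.99 and Ppp1r15b, the constitutive counterpart of Ppp1r15a, by 0.83 on the log2 scale. Atf3 ranged from 1140 to 4682 CPM untreated and from 326 to 1013 CPM after Aldara. The amino acid synthesis list had 7 of 12 rising and 1 falling, with the serine pathway genes Phgdh (1.36) and Psph (1.77), the folate enzyme Mthfd2 (2.07) and the alanine transaminase Gpt2 (1.86) rising and Cbs falling by 1.30. Aminoacyl-tRNA synthetase genes, which ATF4 also raises, showed 15 of 19 rising and 0 falling, among them Gars (1.07), Aars (1.02), Eprs (0.88) and Rars (1.05).

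The receptor's deletion was not associated with a called difference in any member. In untreated libraries, after Aldara and in the test of whether the Aldara effects differed, edgeR called 0 of the 34 members, against 0% of all genes tested in each of the 3 comparisons. DESeq2 and limma voom also called 0 members in each. At an unadjusted p under 0.05 there were 5, 2 and 2 members, beside 3.73%, 4.30% and 3.36% of all genes. The 5 in untreated libraries were all higher in deleted mice: Atf6 (0.97), Atf4 (0.80), Dnajb9 (0.80), Hspa5 (0.69) and Dnajb11 (0.51). After Aldara they were Atf4 (0.69) and Sel1l (-0.55). In the test of the effects' difference they were Atf6 and Sel1l, given above. For the 5 members with the largest averaged Aldara differences among those called, the deletion's 95% interval after Aldara was -1.50 to 1.36 for Trib3, -0.88 to 0.93 for Ppp1r15a, -0.61 to 1.11 for Atf5, -0.40 to 1.01 for Creld2 and -0.56 to 0.69 for Asns on the log2 scale. Each of these intervals includes 0. The comparisons between genotypes and treatments share libraries, so their values are given side by side and not correlated.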

How the data were processed

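Bulk RNA-seq counts of sorted mouse keratinocytes were analysed for 13 libraries in 4 groups, placed by their labels. The authors deposited raw read counts per gene. STAR, featureCounts, Subread and build GRCm38 are named in the submitters' processing notes. Tool versions, the strand setting and the handling of multiply mapped reads: not given in the sources used here. Per the labels' protocols, libraries were made by Smart-seq2 and read as single ends of 100 bases. The method does not mark strand or molecules, so 9 members whose spans overlap another gene may share reads with it. Overlap was taken over whole gene spans, and shared exon bases were not checked.

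Genes were filtered with filterByExpr (minimum count 10), leaving 16051, and tested with edgeR 4.0.16 in R 4.3.3: TMM scaling, 1 coefficient per group over all 13 libraries, quasi-likelihood tests, Benjamini-Hochberg adjustment over all genes, called at an adjusted p under 0.05. Standard errors are the fold change divided by the root of the F statistic, and intervals are 95%. CPM used TMM-scaled totals, except that limits for a count of 0 used totals without scaling. Plotted levels used log2(CPM + 1). Levels per kb used merged exon lengths of GENCODE vM21, and promoters came from RefSeq (GRCm38.p6). The method was tested on simulated data. Alternatives were DESeq2 1.42.0, limma voom 3.58.1, other scalings and filters, the replicate block, only the groups compared, and leaving out libraries. Replicate numbers were not treated as pairs in the reported test. The members and all gene lists were chosen with earlier results of these data known. Values in every library are given for members called in any Aldara test and, in arms with under 2 called on average, for the members with the smallest p; from each other list, up to 4 genes with the smallest p are named, and genes that fell were added after their values were seen. Protein sequences were not analysed here.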

Additional observations from a re-analysis of the deposited data

Results flagged for a closer look

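In the group of 4 deleted untreated libraries, each of the 34 genes was checked for a library far from the other 3, and 2 genes were marked. Manf stood at 36.8 CPM in deleted untreated replicate 1, against 60.6 to 64.1 CPM in the others. Ern1 stood at 5.35 CPM in deleted untreated replicate 2, the library with the fewest counts, against 12 to 13.1 CPM in the others. Both libraries are among the 3 with over 5% of counts in Gm10800. Chance alone marks about 1 in 20 genes in such a check, and groups of 3 were not checked.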

How the results depend on the processing

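No value changed direction while called, and the 0 calls of the deletion tests and of the effects' difference stayed at 0 in every alternative run, with 0 in each left-out library. The averaged count of 17 members called was 9 (8 up, 1 down) without the 3 untreated libraries over 5% Gm10800, a setting added after seeing the data, where 16.5% of all genes were called against 24.9% in the reported test. It was 13 to 18 when 1 library was left out. Hsp90b1, Calr, Canx, Manf, Creld2, Atf5, Asns, Psat1 and Ppp1r15a kept that call under every alternative. The floxed count of 4 (7.05% of all genes) was 10 (9 up, 1 down) with DESeq2 (12.7%), 8 (7 up, 1 down) with limma voom (9.83%) and 2 with only the groups compared (5.95%). It was 0 without libraries over 1% Gm10800 (0.349%), 0 without the 3 over 5% (1.70%), and 0 to 4 with 1 library left out. With upper quartile factors or no filter it split as 3 up and 1 down, the member that fell being Ppp1r15a. The deleted count of 11 (15.5% of all genes) was 6 (5 up, 1 down) with the replicate block (12%), 5 (3 up, 2 down) without the 3 libraries over 5% Gm10800 (9.24%), and 5 to 11 with 1 library left out. The ERAD median in deleted mice was 0.12 in the reported test, the estimate of Derl3, a gene with low counts. That median was -0.11 with limma voom and 0.28 with the replicate block. The cause of these shifts was not tested. With 1 library left out, medians averaged over genotypes, in floxed control and in deleted mice ran from 0.52 to 0.66, 0.46 to 0.82 and 0.41 to 0.55 for chaperones. For the sensors with Xbp1 they ran from -0.018 to 0.18, 0.34 to 0.56 and -0.39 to -0.10. For ERAD they ran from -0.044 to 0.20, -0.0058 to 0.18 and 0.0048 to 0.34. For the ATF4 arm they ran from 0.42 to 0.57, 0.38 to 0.53 and 0.32 to 0.59. Without the 3 libraries over 5% Gm10800, the averaged medians of chaperones (0.45) and of the ATF4 arm (0.29) lay below these ranges. In deviations from group means, same-numbered libraries of different groups correlated at -0.16 to 0.42 over 18 pairs (median -0.00040). Other pairs correlated at -0.44 to 0.37 over 45 pairs (median -0.0022). These medians gave no sign of pairing by number, and a shared batch was not tested. All 3 deleted Aldara libraries are over 1% Gm10800, so that setting gave no value for deleted mice after Aldara, the average or the effects' difference, and the fit of only the groups compared was not run for those last 2. Precision is limited by 3 or 4 libraries a group, and for Derl3, Chac1 and Trib3 by low counts.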
